A study of Oryctolagus cuniculus with 6 samples.

Results

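MMP12, MSR1, OLR1, ARG1 and ATP6V0D2, 5 genes associated with macrophages or with osteoclasts, the bone-resorbing relatives of macrophages, were examined in rabbit ear scars. They were picked by symbol from the mRNA table, where each has 1 transcript, and they make up 5 of its 421 transcripts (415 gene identifiers). The scars came from female New Zealand White rabbits and were taken at day 21, after 6 full-thickness wounds had been made in the ventral skin of each ear. In the ADSC-Exos arm 3 rabbits received exosomes of adipose-derived stem cells, 100 µg in 2 ml, and in the control arm 3 rabbits received saline. All rabbits were given antibiotics and analgesics. The series text has the wounds treated on the first 3 days, while the labels of the samples name 21 days. The species of the exosome donor, the ages of the rabbits and the number of wounds behind each library are not stated in the labels or the series text.

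Macrophages enter a wound from the blood, engulf debris and dying cells, and release proteases, growth factors and cytokines that shape the scar. Scavenger receptors on their surface bind modified lipoproteins and other polyanionic ligands and carry them into phagosomes and endosomes. Proton pumps of the vacuolar type acidify these compartments, and osteoclasts and multinucleated giant cells, which form when macrophage precursors fuse, place such pumps in the membrane that faces bone or a foreign body. In mice, macrophages exposed to interleukin-4 or interleukin-13 express arginase 1.

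Values are log2(normalized reads + 1), where normalized reads are reads divided by the authors' size factor for the library, and whole reads are given beside them. Differences are ADSC-Exos minus control on this log2 scale, which understates the change of low transcripts. The authors' deposited table holds only transcripts whose log2 fold change exceeds 1 in size at a p under 0.05, so all 5 genes had to differ in order to be listed, and their being listed is no result. Reads in the listed mRNAs were 86844, 223668 and 224554 in ADSC-Exos rabbits 1 to 3, and 100758, 137608 and 155547 in control rabbits 1 to 3. Total library sizes are not known from these tables. Each replicate is a separate animal.

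All 5 genes were listed higher in the ADSC-Exos scars, as were 242 (57.5%) of the 421 transcripts. ATP6V0D2, 1 of the 5, rose in the authors' deposited table at an FDR under 0.05, as did 22 of the 242 transcripts listed higher (5.23% of all 421). In either direction 49 of the 421 (11.6%) were called at that FDR. The treated and control rabbits did not overlap for ATP6V0D2 and ARG1, 2 of 5. Nor did they for 107 of the 242 transcripts listed higher (25.4% of all 421), so the 5 genes do not stand out in this. Arms without overlap were not counted among the transcripts listed lower. The median log2 difference of the 5 genes was 1.55, beside 1.56 over the 242 transcripts listed higher and 1.12 over all 421. By limma with adjustment over 17743 transcripts 0 of the 421 passed, while 193 (45.8%) had an unadjusted p under 0.05, 94 of them higher (22.3%). Those numbers depended on single rabbits: without ADSC-Exos rabbit 1, 205 of 311 were higher, and with any other rabbit left out the number higher was 33 to 53. Of the 5 genes, only ATP6V0D2 was among those 94, which all came from the 242 listed higher. In bulk tissue a different number of cells of a type and a different amount of RNA per cell cannot be told apart.

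**Figure D1:**
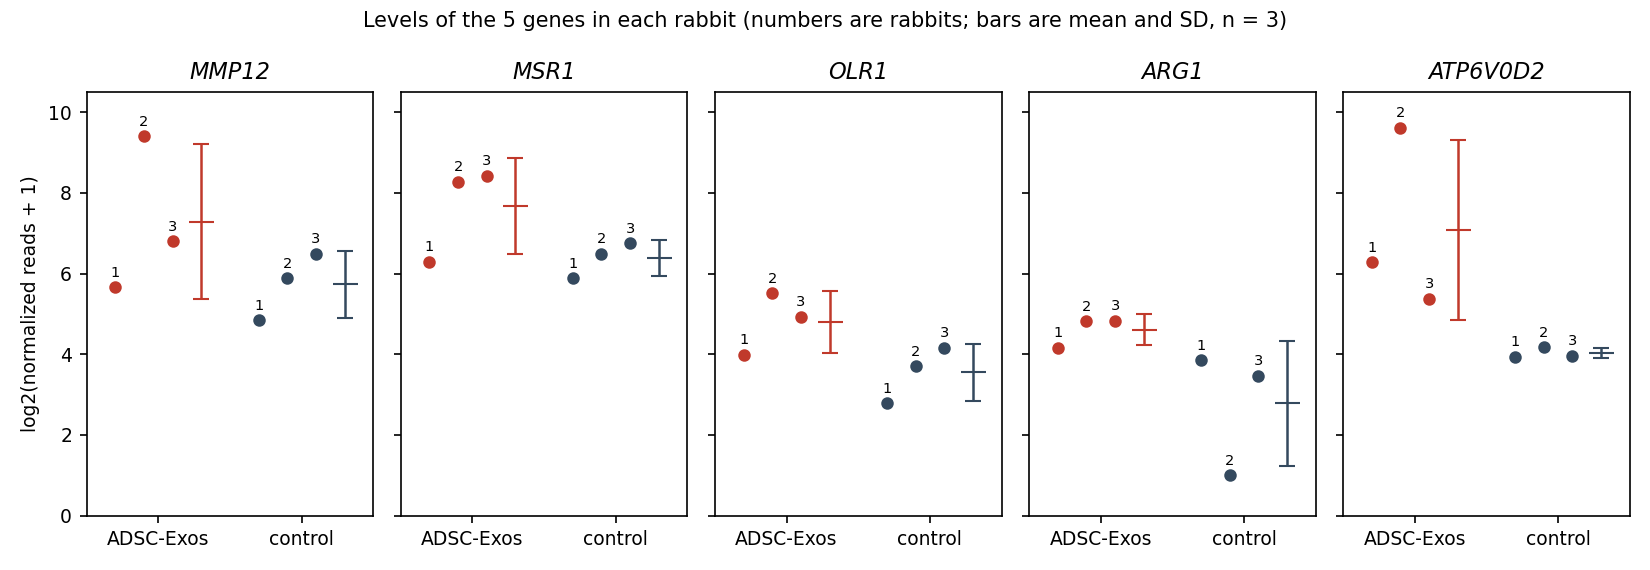
Log2(normalized reads + 1) of the 5 genes in each rabbit, ADSC-Exos left and control right, with points numbered by rabbit and bars for the mean and SD of 3 rabbits. ATP6V0D2 and ARG1 show arms that do not overlap, and ADSC-Exos rabbit 2 has the highest MMP12, OLR1 and ATP6V0D2 values.

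MMP12 encodes macrophage elastase, a secreted zinc protease that cleaves elastin and other matrix proteins. Its transcript (ENSOCUT00000008304 of gene ENSOCUG00000008303) had 50, 667 and 108 reads in ADSC-Exos rabbits 1 to 3, against 33, 58 and 79 reads in control rabbits 1 to 3. The matching log2 values in the ADSC-Exos arm were 5.66, 9.40 and 6.80, and in the control arm 4.85, 5.88 and 6.49. ADSC-Exos rabbit 2 stood far above all others, rabbit 3 lay just above the highest control, and rabbit 1 lay within the control range.

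The MMP12 means were 7.29 ± 1.92 in ADSC-Exos and 5.74 ± 0.83 in control scars (SD, n = 3 each). The difference was 1.55 (SE 0.95; 95% interval -0.66 to 3.75), with an exact two-sided permutation p of 0.3, and in the authors' deposited table the FDR was 0.328. It was 0.49 without ADSC-Exos rabbit 2 and 2.36 without ADSC-Exos rabbit 1, so the rabbit left out moved it by more than 1.5 times in either direction. At 50 reads or more per treated rabbit, counting error was small beside the spread between animals: even the lowest MMP12 count of the 6 libraries gave a counting SD of 0.25 on the log2 scale.

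MSR1 and OLR1 encode scavenger receptors. MSR1, also called scavenger receptor A, is a trimeric membrane protein of macrophages that takes up acetylated and oxidized low-density lipoprotein. Its transcript (ENSOCUT00000025428 of gene ENSOCUG00000014197) had 78, 307 and 338 reads in ADSC-Exos rabbits 1 to 3, against 69, 89 and 95 reads in control rabbits 1 to 3. The log2 values were 6.29, 8.28 and 8.43 in ADSC-Exos and 5.89, 6.49 and 6.75 in control rabbits. Rabbits 2 and 3 of the ADSC-Exos arm were both above every control, at nearly the same level, and rabbit 1 was between the lowest and the middle control.

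The MSR1 means were 7.67 ± 1.19 in ADSC-Exos and 6.38 ± 0.44 in control scars (SD, n = 3 each), a difference of 1.29 (SE 0.68; 95% interval -0.28 to 2.86). The exact permutation p was 0.3, the unadjusted limma p was 0.0939, and the authors' deposited table gave an FDR of 0.249. Without ADSC-Exos rabbit 1 the difference was 1.98, with an unadjusted limma p of 0.00235 and an adjusted p of 0.434 over 17743 transcripts. Leaving out ADSC-Exos rabbit 2 gave 0.99, with an unadjusted limma p of 0.242, and leaving out ADSC-Exos rabbit 3 gave 0.91, with an unadjusted limma p of 0.274.

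OLR1, the lectin-like oxidized low-density lipoprotein receptor LOX-1, is found on endothelial cells, macrophages and smooth muscle cells. Its transcript (ENSOCUT00000030686 of gene ENSOCUG00000016813) had 15, 44 and 29 reads in ADSC-Exos rabbits 1 to 3, against 7, 12 and 15 reads in control rabbits 1 to 3. ADSC-Exos rabbits 2 and 3 were above all controls, and rabbit 1, with as many reads as control rabbit 3, fell below it after division by the size factors (log2 values of 3.99 in ADSC-Exos rabbit 1 and 4.16 in control rabbit 3).

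OLR1 averaged 4.81 ± 0.77 in ADSC-Exos and 3.55 ± 0.70 in control scars (SD, n = 3 each). The difference of 1.26 (SE 0.63; 95% interval -0.18 to 2.71) had an exact permutation p of 0.2, and an FDR of 0.535 in the authors' deposited table. Unlike the other 4 genes, its difference moved by less than 1.5 times whichever rabbit was left out, between 0.88 and 1.67. Counts were low: exact Poisson 95% intervals were 8.39 to 24.7 reads for ADSC-Exos rabbit 1 and 2.81 to 14.4 for control rabbit 1, and they cover counting error only.

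ARG1 encodes arginase 1, which splits arginine into ornithine and urea. It serves the urea cycle in liver, and in humans it is also found in neutrophils and in the epidermis, so in skin it does not mark macrophages alone. Its transcript (ENSOCUT00000033663 of gene ENSOCUG00000001813) had 17, 27 and 27 reads in ADSC-Exos rabbits 1 to 3, against 16, 1 and 9 reads in control rabbits 1 to 3. The treated values lay close together and the control values did not. The arms were apart, though only by the step between ADSC-Exos rabbit 1 and control rabbit 1 (log2 values of 4.16 and 3.86).

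The Poisson 95% intervals of those rabbits were 9.90 to 27.2 reads in ADSC-Exos rabbit 1 and 9.14 to 26.0 reads in control rabbit 1, which overlap almost wholly. ARG1 averaged 4.61 ± 0.39 in ADSC-Exos and 2.78 ± 1.55 in control scars (SD, n = 3 each), a difference of 1.83 (SE 0.82; 95% interval -0.07 to 3.73). The exact permutation p was 0.1, the smallest that 3 against 3 rabbits can give, and the FDR in the authors' deposited table was 0.641. Without control rabbit 2, which had the single read, the difference was 0.94.

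ATP6V0D2 encodes the d2 subunit of the membrane sector of the vacuolar proton pump, which in mice is abundant in osteoclasts and is needed for the fusion of their precursors. Its transcript (ENSOCUT00000010246 of gene ENSOCUG00000010247) had 77, 772 and 40 reads in ADSC-Exos rabbits 1 to 3, against 17, 17 and 13 reads in control rabbits 1 to 3. The treated log2 values were 6.28, 9.61 and 5.38, and the control values 3.94, 4.17 and 3.96. Every treated rabbit was above every control, the closest pair being 1.22 apart on the log2 scale, and the treated rabbits differed widely among themselves while the controls were almost level.

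ATP6V0D2 averaged 7.09 ± 2.23 in ADSC-Exos and 4.03 ± 0.13 in control scars (SD, n = 3 each). The difference was 3.07 (SE 1.01; 95% interval 0.75 to 5.39), the 15th largest of the 242 transcripts listed higher, and the exact permutation p was 0.1. In the authors' deposited table its p was 6.87e-06 and its FDR 0.002. Limma gave an unadjusted p of 0.0159 and an adjusted p of 1 over 17743 transcripts. Without ADSC-Exos rabbit 2 the difference was 1.81, and it stayed between 1.81 and 3.92 whichever rabbit was left out.

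**Figure D2:**
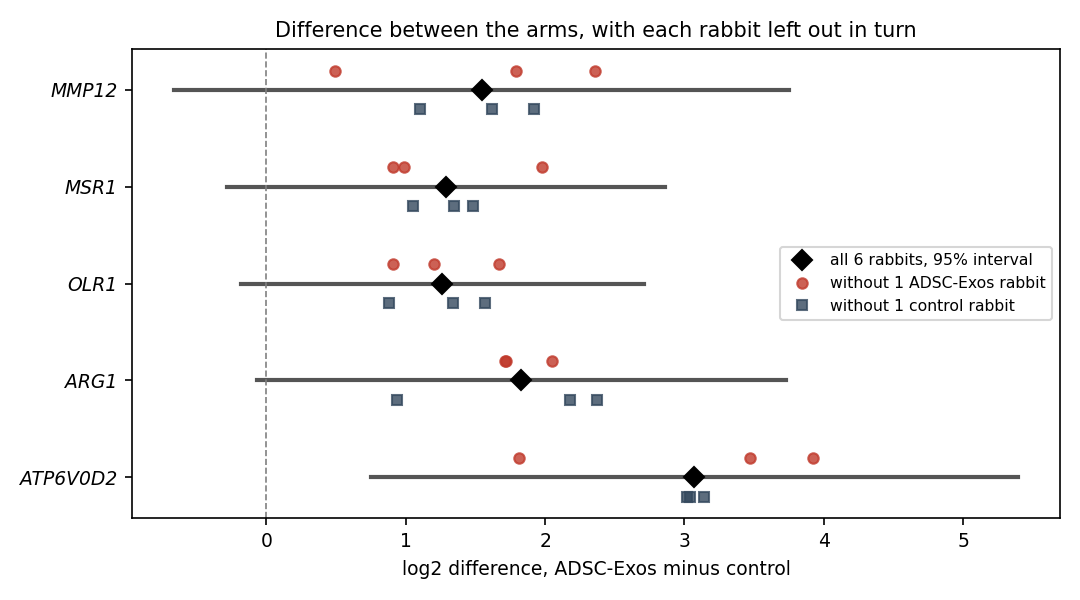
Log2 difference (ADSC-Exos minus control) of each gene with all 6 rabbits (diamond, with limma's 95% interval) and with 1 rabbit left out (circles, an ADSC-Exos rabbit; squares, a control rabbit). Every value lies above 0, and the interval excludes 0 for ATP6V0D2 (0.75 to 5.39). All 5 genes were listed through a difference in these same rabbits, so the signs and intervals are not independent of that selection.

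The 5 genes did not share 1 profile across the treated rabbits. For 4 of the 5 genes the lowest treated value was that of ADSC-Exos rabbit 1, as it was for 85.5% of the 242 transcripts listed higher. ATP6V0D2 was the exception, as it was lowest in ADSC-Exos rabbit 3. ADSC-Exos rabbit 2 was the highest treated rabbit for 3 of the 5 genes, and for 49.6% of the 242 transcripts listed higher. The distance of rabbit 1 from the control mean was -0.08 for both MMP12 and MSR1, 0.44 for OLR1, 1.38 for ARG1 and 2.25 for ATP6V0D2, with a median of 0.42 over the 242 transcripts. The quartiles of those transcripts were 0.00 and 1.21, so in rabbit 1 ATP6V0D2 lay above them, and did so without any 1 control rabbit. ARG1 lay above them only through the single read of control rabbit 2: without that control its distance was 0.49, between quartiles of 0.00 and 1.16.

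In ADSC-Exos rabbit 2 the distances were 5.59 for ATP6V0D2 and 3.66 for MMP12, above the quartiles of the 242 transcripts (1.56 and 3.09), and between 1.91 and 2.05 for the other 3 genes. Without control rabbit 2 the distance of ARG1 was 1.16 in ADSC-Exos rabbit 2 and 1.17 in ADSC-Exos rabbit 3. In ADSC-Exos rabbit 3 all 5 distances lay between 1.06 and 2.06, and the 242 transcripts had quartiles of 1.58 and 2.90. MMP12 and ATP6V0D2 were under the lower quartile there, also without any 1 control rabbit. OLR1 was under it as well, but without control rabbit 3 its distance was 1.69, above a lower quartile of 1.60.

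**Figure D3:**
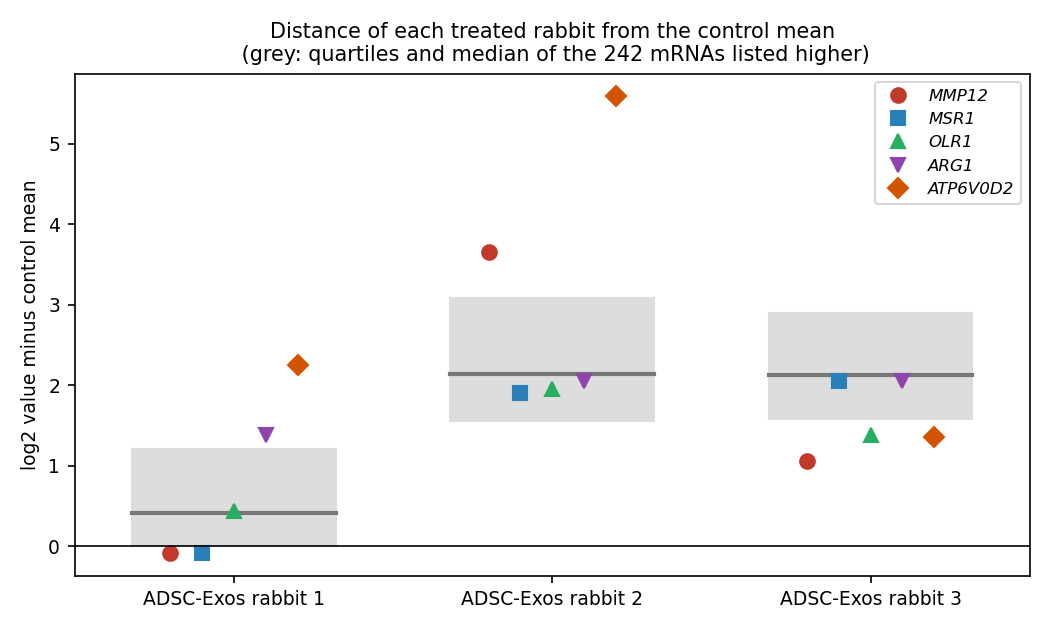
Log2 value of each ADSC-Exos rabbit minus the control mean, for the 5 genes (symbols) and for the 242 mRNAs listed higher (grey box, quartiles; grey line, median). Rabbit 2 shows ATP6V0D2 at 5.59 and MMP12 at 3.66, while in rabbit 3 all 5 genes lie between 1.06 and 2.06.

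Among the controls, MMP12, MSR1 and OLR1 had the same order, lowest in rabbit 1 and highest in rabbit 3, whereas ARG1 was highest in control rabbit 1. Control rabbit 1 was the lowest control for 54.1% of the 242 transcripts listed higher, and control rabbit 3 the highest for 40.1%. These places are therefore common in the table and not particular to the 3 genes. Over all 6 rabbits, Pearson's r of the log2 values was 0.91 for MMP12 and OLR1, 0.92 for MSR1 and OLR1, and 0.82 for MMP12 and MSR1. After the arm means were subtracted these were 0.90, 0.86 and 0.73. ATP6V0D2 followed MMP12 (r of 0.85, and 0.81 after subtraction) more closely than MSR1 (0.62 and 0.25). For ARG1 and the other 4 genes r was 0.41 to 0.55, and -0.04 to 0.11 after subtraction. These values describe 6 rabbits whose genes share libraries, size factors and the selection of the table, and they carry no test.

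The ratio of genes within a rabbit does not depend on the size factor. The log2 ratio of ATP6V0D2 to MSR1 was -0.02, 1.33 and -3.08 in ADSC-Exos rabbits 1 to 3, against -2.02, -2.39 and -2.87 in control rabbits 1 to 3. Relative to MSR1, ATP6V0D2 was therefore above every control in ADSC-Exos rabbits 1 and 2 and below every control in rabbit 3. The log2 ratio of MMP12 to MSR1 was -0.64, 1.12 and -1.65 in the ADSC-Exos rabbits and -1.06, -0.62 and -0.27 in the control rabbits, again highest in rabbit 2 and lowest in rabbit 3 of the treated arm. That of OLR1 to MSR1 averaged -2.91 ± 0.59 in ADSC-Exos and -2.95 ± 0.32 in control rabbits (SD, n = 3 each), and the arms differed in it by 0.04, less than the spread in either arm.

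For the other genes of these pathways, 19 lists with 277 different genes were searched. Besides the 5 genes, 15 genes with 16 transcripts were in the table, 5 transcripts higher and 11 lower. Of all 421 transcripts 57.5% were listed higher. Of the 23 macrophage identity genes, among them CD68, CD163, CSF1R and CD14, 0 are among the selected transcripts, so their levels were not analysed here and the macrophage content of the scars is not known from these data. ATP6V0D2 was the 1 listed gene of 25 vacuolar proton pump subunits and of 21 osteoclast and giant cell genes. The defining osteoclast genes ACP5, CTSK, CALCR and DCSTAMP are on that list and were not analysed here.

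Of 18 scavenger receptor genes, 3 were listed, all higher and 0 called in the authors' deposited table: MSR1, OLR1 and SCARA3, a receptor of the same class as MSR1 by structure. SCARA3 had 50, 1697 and 57 reads in ADSC-Exos rabbits 1 to 3, against 81, 21 and 50 reads in control rabbits 1 to 3. Its high value came from ADSC-Exos rabbit 2 alone, and the difference of 1.96 (SE 1.30) was 0.30 without that rabbit. CHIT1, the chitinase of activated macrophages in humans, was the 1 listed of 26 lipid loading and lysosome genes. It had 208, 1191 and 600 reads in ADSC-Exos rabbits and 235, 243 and 303 reads in control rabbits, and a difference of 1.07 (SE 0.70; 0.48 without ADSC-Exos rabbit 2 and 1.75 without ADSC-Exos rabbit 1). As for MMP12, ADSC-Exos rabbit 2 was highest and rabbit 1 within the control range.

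Of 26 matrix metalloproteinases and inhibitors, MMP12 and MMP27 were listed, in opposite directions. MMP27, a metalloproteinase related to the stromelysins, had 982, 267 and 559 reads in ADSC-Exos rabbits and 1792, 1316 and 1003 reads in control rabbits. Its arms did not overlap, with a difference of -1.30 (SE 0.59; -0.81 without ADSC-Exos rabbit 2) and an FDR of 0.281 in the authors' deposited table. ADSC-Exos rabbit 2, highest for MMP12, was the lowest of all for MMP27.

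Of 18 genes of arginine and polyamine metabolism, ARG1 and SLC7A3 were listed. SLC7A3, a carrier that brings arginine into cells, had 117, 64 and 56 reads in ADSC-Exos rabbits and 157, 135 and 182 reads in control rabbits, a difference of -1.02 (SE 0.51) without overlap and with an FDR of 0.288 in the authors' deposited table. Of 19 genes of the response to interleukin-4 and interleukin-13, ARG1 and IL13 were listed. IL13, the cytokine itself, had 1, 0 and 0 reads in ADSC-Exos and 2, 5 and 6 reads in control rabbits, so that it went the other way from ARG1 at counts of a few reads.

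Of 18 inflammatory macrophage genes, 2 were listed, both lower and 0 called in the authors' deposited table. IL12B, the p40 subunit of interleukin-12 and interleukin-23, had 2, 0 and 0 reads in ADSC-Exos and 7, 5 and 7 reads in control rabbits. The chemokine gene CXCL10 had 63, 12 and 31 reads in ADSC-Exos and 57, 109 and 89 reads in control rabbits, a difference of -1.44 (SE 0.68; -0.84 without ADSC-Exos rabbit 2). The IL12B arms did not overlap, and those of CXCL10 did.

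Markers of other cell types were searched in the same way. Of 13 neutrophil markers S100A8 was listed, with 2 transcripts that were lower, and the sum of their normalized reads was 115 to 172 in ADSC-Exos and 95.5 to 1543 in control rabbits. The differences of these transcripts were -1.34 and -1.15. They shrank to -0.19 and -0.08 without control rabbit 3 and grew to -2.26 and -1.89 without control rabbit 1. Of 13 keratinocyte markers S100A8 and TGM5, a transglutaminase of the cornified envelope, were listed. TGM5 had 1279, 6029 and 3125 reads in ADSC-Exos and 1217, 1189 and 1444 reads in control rabbits, a difference of 1.21 (SE 0.66; 0.68 without ADSC-Exos rabbit 2), so this epidermal gene had the same order of treated rabbits as MMP12 and OLR1. Its part in the values of the 5 genes was not tested. Normalized reads of the 3 listed keratinocyte transcripts summed to 1443 to 6217 in ADSC-Exos and 1124 to 3166 in control rabbits.

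Of 9 dendritic and Langerhans cell markers CD1A and LAMP3 were listed, both lower, and their normalized reads summed to 6.96 to 22.4 in ADSC-Exos and 14.4 to 107.9 in control rabbits. CD1A, with 0 reads in control rabbit 1, differed by -1.97, and by -3.65, -1.09 and -1.17 without control rabbits 1, 2 and 3. LAMP3 differed by -1.54, and by -0.94 without control rabbit 3. Of 12 fibroblast and myofibroblast markers CTHRC1 was listed, with normalized reads of 0 to 401.7 in ADSC-Exos and 1.12 to 11.99 in control rabbits. CTHRC1 differed by 2.41, and by 4.93 and 0.61 when ADSC-Exos rabbits 1 and 3 were left out in turn. Of 10 cartilage markers COL10A1 and EPYC were listed lower and SCRG1 higher, and COL10A1 fell at an FDR of 0.00173 in the authors' deposited table. EPYC differed by -1.52, and by -1.01 without control rabbit 3. Normalized reads of these 3 cartilage genes summed to 2907 to 5979 in ADSC-Exos and 8541 to 23278 in control rabbits. The lists of T and NK, mast, endothelial, adipocyte and osteoblast cells had 0 listed members.

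**Figure D4:**
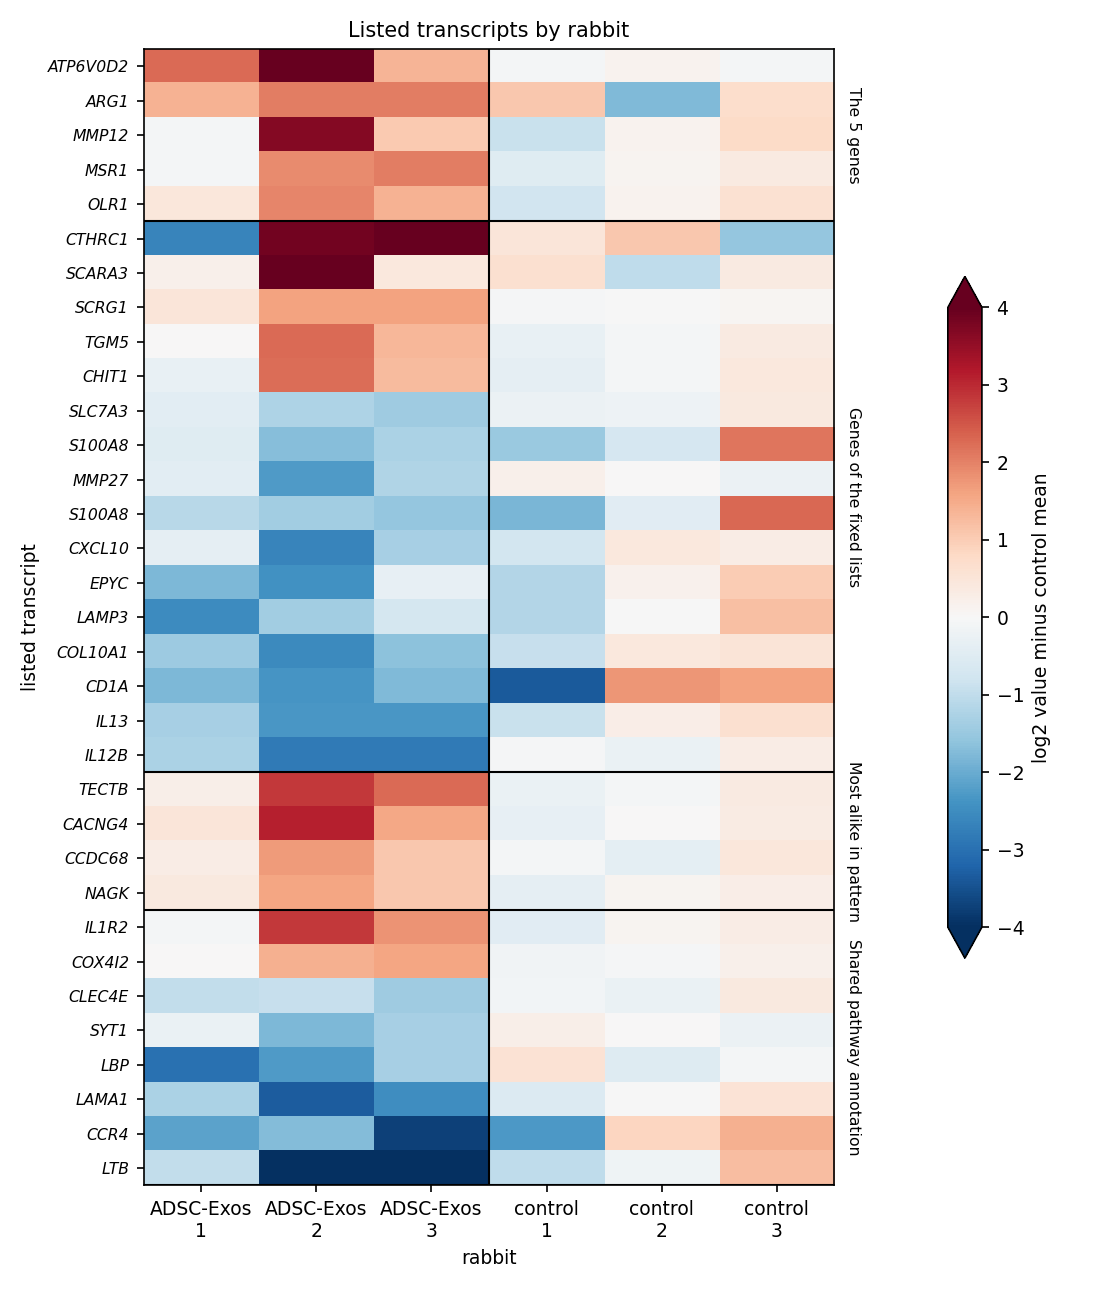
Log2 value minus the control mean in each rabbit (columns, ADSC-Exos left) for the 5 genes, the other listed genes of the lists, the transcripts most alike in pattern and those that share a pathway annotation; TGM5 belongs to both the second and the third set and IL12B and LAMP3 to the second and the fourth, and each is drawn once in the second. Colours stop at 4 in either direction. ADSC-Exos rabbit 1 is close to 0 for MMP12, MSR1, CHIT1, TGM5 and IL1R2, and rabbit 2 is high for each of them.

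The transcripts most like the 5 genes were sought among the 316 other listed transcripts with a symbol, by Pearson's r over 6 rabbits with the mean of the 5 standardised profiles. That mean was -0.15, 1.41 and 0.60 in ADSC-Exos rabbits 1 to 3, and -0.84, -0.79 and -0.23 in control rabbits 1 to 3. The closest were CACNG4 (r = 0.987), a calcium channel gamma subunit, CCDC68 (0.984), a centriole protein, NAGK (0.979), the kinase that recycles N-acetylglucosamine, TGM5 (0.977) and TECTB (0.970), a tectorin of the inner ear. Among the selected transcripts 54 reached an r of 0.9 and the median was 0.60, so a high r sets these 5 apart little.

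NAGK had 98, 217 and 152 reads in ADSC-Exos rabbits and 68, 79 and 78 reads in control rabbits, a difference of 1.01 (SE 0.51) with arms that did not overlap. CACNG4 had 23, 143 and 48 reads in ADSC-Exos rabbits and 15, 16 and 18 reads in control rabbits, a difference of 1.71 (SE 0.70; 1.02 without ADSC-Exos rabbit 2). Both had the order of treated rabbits seen for MMP12 and OLR1, rabbit 2 above rabbit 3 above rabbit 1. The mean profile they were chosen to match has that order itself, so this likeness is no separate result.

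The deposited annotation places ATP6V0D2, MSR1 and OLR1 in the KEGG phagosome pathway, and these 3 are all the listed transcripts with that annotation. The 5 genes carry 12 pathway annotations, and 10 other listed genes share 1 or more of them, 2 higher and 8 lower, while 57.5% of all 421 transcripts were listed higher. IL1R2, the decoy receptor that binds interleukin-1 without signalling, shares 1 with ARG1. It had 1741, 12709 and 6281 reads in ADSC-Exos rabbits and 1585, 1982 and 2014 reads in control rabbits, a difference of 1.52 (SE 0.77; 0.87 without ADSC-Exos rabbit 2 and 2.32 without ADSC-Exos rabbit 1). Again ADSC-Exos rabbit 2 was highest and rabbit 1 lay among the controls. Rabbit 2 was the highest treated rabbit for 49.6% of the 242 transcripts listed higher, and rabbit 1 the lowest for 85.5%. Each of these places is common among them, and how many transcripts had both was not counted.

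CLEC4E, the macrophage receptor Mincle that binds mycobacterial glycolipid, shares an annotation with ATP6V0D2. In contrast to the 5 genes it had 28, 29 and 20 reads in ADSC-Exos rabbits and 61, 47 and 66 reads in control rabbits. Its arms did not overlap, the difference was -1.11 (SE 0.46; -1.24 to -0.92 with 1 rabbit left out), and the FDR in the authors' deposited table was 0.117. LBP, the carrier of bacterial lipopolysaccharide, was the 1 gene of these 10 called in that table, where it fell at an FDR of 0.00347. Of all 421 transcripts 49 (11.6%) were called there in either direction, so 1 of 10 is near that share. LBP had 28, 46 and 87 reads in ADSC-Exos rabbits and 404, 158 and 191 reads in control rabbits.

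Of the 133 listed lncRNAs 0 lie within 3 kb of 1 of the 5 genes by the deposited annotation, and 0 of the 1694 listed circRNAs, circles closed by back-splicing, come from them. Other subunit genes of the vacuolar proton pump were hosts of 4 listed circRNAs, each with an FDR of 0.821 in the authors' deposited table. That of ATP6V0A1, exonic and placed by the table on chromosome 19 from 43269713 to 43270735, had 3, 1 and 4 reads in ADSC-Exos rabbits and 0, 0 and 2 reads in control rabbits. Those of ATP6V1A and ATP6V1C1 had 3 and 2 reads in the ADSC-Exos arm and 0 in control rabbits, and that of ATP6V1H had 0 reads in ADSC-Exos and 3 in control rabbits. Other list genes also hosted listed circRNAs, each with an FDR of 0.821. Reads in the ADSC-Exos and control arms were 3 and 0 for MERTK, a macrophage identity gene, 5 and 0 for PPARG, 4 and 0 for NPC1, and 2 and 0 for ABCA1. They were 0 and 3 for both SLC7A2 and TEK, and 1 and 5 for DCN. With at most 8 reads per circle in an arm and no test run here, these circles are not told apart between the arms at this depth.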

How the data were processed

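RNA of day 21 ear scars from 6 rabbits was analysed from 3 deposited tables. The authors deposited log2 values. Converted back from log2, with 1 subtracted, 100% of them were whole multiples (within 0.01) of the step that 1 read makes in that library, so each is log2(reads divided by a size factor + 1). The size factors of the mRNA table ran from 0.890 to 1.18. The submitters' processing notes name STAR 2.7.6a, HTSeq 2.0.3, DESeq2 1.30.1, Trimmomatic 0.40 and FastQC 1.0.0, but not what each did. The labels' protocol describes adaptors joined to small RNAs, although the tables hold mRNA, lncRNA and circRNA, so the kind of library behind the mRNA reads is not settled here. The build of the genome, whether counting used strand, and how reads shared between like genes were assigned are not given in the sources used here. No value column was left unmapped.

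The p-values and FDR are from the authors' deposited table, which does not name its test. Ratios of FDR to p fitted 17743 transcripts tested, with 53.4% of rows within 0.0001 of a whole rank.

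Limma 3.58.1 (R 4.3.3), with its trend and robust options, was fitted over all 421 mRNA transcripts, with 3 rabbits in each arm. Benjamini-Hochberg adjustment ran over 17743 transcripts, each unlisted one at a p of 1, with a threshold of 0.05. Exact permutation tests were two-sided. Limma's p-values are not independent of the authors' selection, and its prior for the spread comes from selected transcripts. The script was tested on simulated counts that were not selected on a difference, which checks the code and not the p-values for this selected table. The genes, the lists and the tests were chosen with earlier results of these data known. Named besides the 5 genes are the listed transcripts on the gene lists and the 5 transcripts whose values follow the 5 genes most closely. Genes that share a pathway annotation with 1 of the 5, and the circRNAs of list genes, were added after the values were seen. Alternatives were other pseudocounts, no size factor, quantile normalization, a filter on low values, limma without its trend and robust options, limma-voom on the whole reads, the replicate number as a block, and leaving out each rabbit. Transcript lengths were not used here, so levels are not compared between genes.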

Additional observations from a re-analysis of the deposited data

How the results depend on the processing

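The limits are the selected table, 3 rabbits an arm and few reads for OLR1 and ARG1. None of the 5 log2 differences changed sign in 14 alternative settings; their p adjusted over 17743 transcripts was 1, except 0.434 for MSR1 without ADSC-Exos rabbit 1, so not passing it says nothing of stability. Adjusted over the table alone it was 0.0928 to 0.163. The low-value filter, limma without its trend and robust options, and the replicate block cannot change a log2 difference. Listing required a log2 fold change over 1 in size, so pseudocounts and normalizations had little room to reverse a sign. MMP12 ranged from 0.49 to 2.36, MSR1 from 0.91 to 1.98, OLR1 from 0.84 to 1.67, ARG1 from 0.94 to 2.37 and ATP6V0D2 from 1.81 to 3.92; the unadjusted p was under 0.05 in 1, 2, 1, 3 and 12 settings, in that order of genes. Adjusted limma calls, 0 of 421 as reported, were 3 when adjusted over the table alone, and 0 to 2 with 1 rabbit left out, the 2 without ADSC-Exos rabbit 1. At an unadjusted p under 0.05, 193 transcripts became 115 with a mean of at least 10 normalized reads, where fewer were tested, and 94 to 311 with 1 rabbit left out: 311, 101 and 97 without ADSC-Exos rabbits 1 to 3 (205, 41 and 33 higher), and 141, 94 and 117 without control rabbits 1 to 3 (53, 42 and 49 higher). The cause was not tested. With the replicate number as a block 0 transcripts passed and 169 had an unadjusted p under 0.05. Deviations of same-numbered rabbits correlated between -0.025 and 0.014, and 0 of 6 rabbits correlated best with their own number, so the replicate numbers were not taken to pair rabbits. For the 28 other named transcripts, 0 of 390 comparisons with an alternative changed sign, but 13 of the 28 differences moved by over 1.5 times without 1 rabbit. Those 390 include the settings that cannot change a difference. The settings for genes that share a pathway annotation, and the distances without a control rabbit, were added after seeing the data. Levels per length were planned and not run, as transcript lengths were not used here.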
